A study of Homo sapiens with 8 samples.

Results

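The peaks described here are the highest anti-PML::RARA Cut&Run peaks that carry no promoter label, in U937-PR9 cells induced with zinc. They were chosen by measured values, namely a peak height of at least 45 and a width under 2500 bp, among the peaks with no gene symbol in the list. Of the 15412 peaks in the list, 8243 carried no symbol and 8143 of these were under 2500 bp wide. The rule took 535 of the 8143, or 6.57%, and the other 7608 served as the comparison. Peak height is the deposited score, read here as the largest signal within a peak, in the units of the deposited list. Height set the members apart by construction, whereas the width limit held for both groups and total signal was not part of the rule. Height, width and total signal are given as a description, with no test.

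U937-PR9 is a human monocytic line whose PML::RARA transgene sits behind a zinc-inducible promoter, which makes it a model of induction in an existing leukaemia line rather than of promyelocytes that arose with the fusion. All cells of the Cut&Run libraries described here carried this transgene and received either 100 μM ZnSO4 or sterile water for 5 h. In Cut&Run, a nuclease tethered to an antibody on isolated nuclei releases the DNA around the bound protein for sequencing. Anti-PML::RARA and anti-RARA antibodies were each applied to 2 replicates of both conditions, 8 libraries in all, and the list analysed here combines the 2 zinc-treated replicates of the anti-PML::RARA antibody. The other 6 libraries were not analysed here. The peaks were called against paired control experiments, and the paper reports far fewer peaks with this antibody in uninduced cells. No value of water-treated cells is held for any peak, so the change with zinc at single peaks cannot be given here. The list holds 1 value per peak and no value per replicate, so no spread between replicates could be given. Intervals below are 95% intervals that cover the counting of peaks only, and neighbouring peaks are not independent of each other.

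PML::RARA is the fusion protein of acute promyelocytic leukemia and keeps the DNA-binding domain of retinoic acid receptor alpha. Retinoic acid receptors bind as dimers with RXR to paired copies of a short hexamer, classically in direct repeats. In myeloid cells, enhancers away from promoters are commonly occupied by the ETS factor PU.1, by RUNX1 and by C/EBP and AP-1 factors, whose short recognition sequences can be searched for under a peak.

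The stretches below show what such letters look like under named high peaks. Each is 101 bases of the hg19 plus strand, in lower case, with the match to 1 motif in capitals. Other motifs may also lie in the lower-case letters. The first is the RUNX motif under the highest peak of the whole list, at ECE1. Then come the ETS and AP-1 motifs under the second highest member, at PPCDC, the longer PU.1-type motif at STK10, the C/EBP motif at ARID3B and a single receptor hexamer at CRYBG1. The last 2, assigned to CD93 and DAPK2, hold the only pairs of receptor hexamers found among the 535 members.
ECE1, chr1:21660878-21660978, RUNX: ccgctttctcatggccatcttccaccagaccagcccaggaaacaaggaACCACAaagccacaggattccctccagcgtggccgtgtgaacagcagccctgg
PPCDC, chr15:75335395-75335495, ETS: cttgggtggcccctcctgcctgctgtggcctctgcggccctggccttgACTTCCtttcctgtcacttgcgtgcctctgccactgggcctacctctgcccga
PPCDC, chr15:75335488-75335588, AP-1: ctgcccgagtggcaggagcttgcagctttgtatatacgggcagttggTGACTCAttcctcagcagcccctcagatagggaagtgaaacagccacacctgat
STK10, chr5:171602560-171602660, PU.1-type: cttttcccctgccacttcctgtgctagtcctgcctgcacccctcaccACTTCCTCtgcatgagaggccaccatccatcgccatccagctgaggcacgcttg
ARID3B, chr15:74838515-74838615, C/EBP: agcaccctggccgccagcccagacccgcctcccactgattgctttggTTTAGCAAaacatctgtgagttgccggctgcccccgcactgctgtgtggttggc
CRYBG1, chr6:106896071-106896171, receptor hexamer: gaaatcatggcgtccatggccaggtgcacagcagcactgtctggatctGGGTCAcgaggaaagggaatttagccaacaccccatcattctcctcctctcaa
CD93, chr20:23136821-23136921, receptor hexamer pair: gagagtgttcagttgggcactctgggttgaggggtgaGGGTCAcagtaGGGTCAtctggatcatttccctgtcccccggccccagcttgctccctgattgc
DAPK2, chr15:64189029-64189129, receptor hexamer pair: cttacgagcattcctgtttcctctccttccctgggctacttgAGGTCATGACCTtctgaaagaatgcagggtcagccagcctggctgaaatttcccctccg

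Heights of the 535 members ran from 45 to 87, with a median of 50 and quartiles of 47 and 55. Of the members, 246 were under 50, 69 at 60 or more and 15 at 70 or more. The comparison peaks had a median height of 23 (range 15 to 44). Members were also wider, with a median of 1069 bp (range 179 to 2490 bp) against 605 bp, and their median total signal was 17144 against 4894. Among the members, height was only loosely tied to width, with Spearman's rho of 0.10 across 535 peaks that share the same libraries. The rule limits the range of both values. Over all unlabelled peaks under 2500 bp, the median width was 469.5 bp at heights of 15 to 19 and 1113 bp at 55 to 87. The 63 members at a height of 45 had a median width of 1043 bp, and the 68 comparison peaks at 44 had one of 1010 bp, so peaks on either side of the limit were of similar size.

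**Figure D1:**
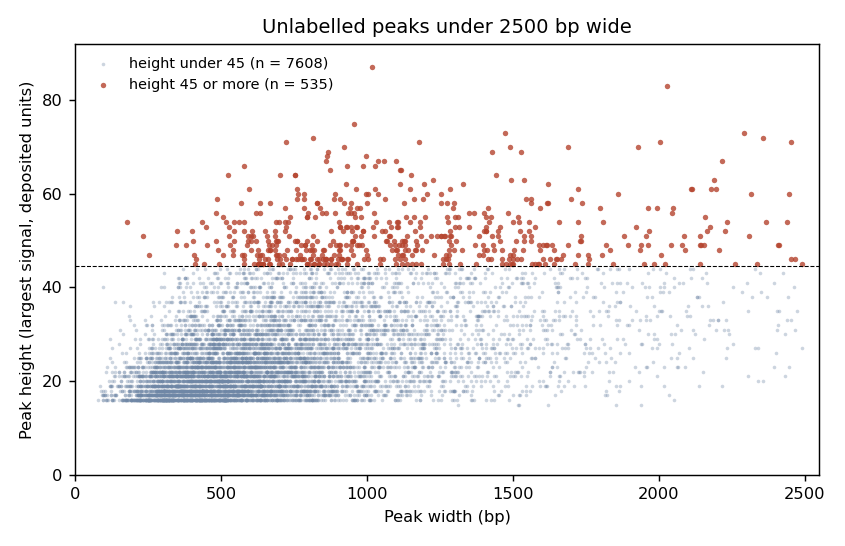
Width in bp (horizontal) and height in units of the deposited signal (vertical) of each unlabelled peak under 2500 bp, with the 535 members in red, the 7608 comparison peaks in blue and the limit between them dashed. Members are found at widths from 179 to 2490 bp, and 246 of them have a height under 50.

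The highest member, from 21660471 to 21661486 on chromosome 1, lay in an intron of ECE1 (endothelin-converting enzyme 1, a membrane metalloprotease). Its height of 87 was the highest of any peak in the list, and its apex was 10759 bp downstream of an ECE1 start site. ECE1 also had a labelled promoter peak 9393 bp away. The second, at a height of 83, lay in intron 2 of the canonical transcript of PPCDC, which encodes an enzyme of coenzyme A synthesis. Its apex was 141 bp from an annotated start site, and the labelled PPCDC promoter peak was 18286 bp away. The third lay in intron 2 of ARID3B, a DNA-binding protein of the ARID family, with a height of 75 and an apex 1909 bp downstream of a start site.

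Among the next 17 members by height, 12 more had their apex in an intron of the protein-coding gene assigned to them. ZFYVE28 (height 73), CRYBG1 (72), HIP1, which encodes an endocytic adaptor (71), ZNRF1, a ubiquitin ligase (71), STK10, a lymphocyte-rich serine/threonine kinase (70), IQCD (69) and RAB20, a small GTPase of endosomes (68), were each occupied in intron 1. GNA12, a G protein alpha subunit (70), TMEM104 (70) and TESC (70) were occupied in intron 2, MBP in intron 3 (69) and PNLDC1 in intron 18 (71). The peaks assigned to SERTAD2 (73), UACA (72) and ANKHD1 (71) lay outside protein-coding genes, as did a peak of height 68 assigned to TLE3, which encodes a Groucho-type corepressor. The HNRNPM peak (69) had its apex in an annotated exon. HNRNPM encodes a splicing factor.

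By location, the members resembled the lower unlabelled peaks. Their apex lay in an intron of any annotated gene in 287 of 535 peaks, or 53.6% (Wilson interval 49.4 to 57.8%), against 56.1% of the comparison, a difference of -2.48 percentage points (Newcombe interval -6.86 to 1.85). Intergenic apexes made up 33.8% against 32.2%, and exonic apexes 12.5% against 11.7%. Both of these differences had intervals that include 0. With protein-coding genes only, introns held 46.2% and 46.1%.

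Within genes, the first intron held a larger share of the members, a difference that depended on the limit of height. Intron 1 of the assigned gene's canonical transcript held 105 members, or 19.6%, against 15.3% of the comparison, a difference of 4.33 points (1.08 to 7.99). With a height of at least 40 as the limit it was 2.05 points (-0.40 to 4.73). Later introns held 21.7% against 25.7%, a difference of -3.99 points (-7.42 to -0.18). The first-intron share was higher among members on 11 of the 19 chromosomes with at least 10 members and lower on 8, so it was not a uniform difference across chromosomes.

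Although no member carried a promoter label, 126 of them (23.6%) had an apex within 1 kb of a start site in the annotation used here, against 19.4% of the comparison, a difference of 4.14 points (0.62 to 8.01). Among peaks of at least 1000 bp this difference turned to -5.19 points (-10.7 to 0.80). With start sites of protein-coding genes only, the shares were 12.7% and 11.5% and the interval of the difference included 0 (1.25 points, -1.41 to 4.42), as it did with a height of at least 50 (2.55 points, -1.94 to 7.76) and at peak centres (3.37 points, -0.12 to 7.22). The 5 highest of these peaks were those at PPCDC, at SERTAD2 (apex 218 bp from a start site), at ANKHD1 (37 bp), at HNRNPM (315 bp) and at AHNAK, which encodes a very large scaffold protein (349 bp, height 67).

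A gene with a high unlabelled peak was often one whose promoter was labelled elsewhere in the list. The assigned gene of 335 members (62.6%, 58.4 to 66.6%) also had a labelled promoter peak, against 50.5% for the comparison, a difference of 12.2 points (7.83 to 16.3). The share was higher among members on 15 of 19 chromosomes. It also rose over bands of height. It was 46.7% at heights of 15 to 19, 50.9% at 20 to 29, 54.5% at 30 to 44, 59.0% at 45 to 54 and 72.5% (64.7 to 79.2%) at 55 to 87. For 294 members (55%), the nearest labelled promoter peak on the chromosome was that of the assigned gene itself, against 44.6% of the comparison.

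The gap between the edges of a member and the nearest labelled promoter peak had a median of 36856 bp (28179 to 42261 bp), against 50228 bp (48198 to 52317 bp) for the comparison. Among peaks of at least 1000 bp the medians were 32097 bp (23296 to 40874 bp) and 38410 bp (34413 to 42165 bp), with intervals that overlap. A labelled promoter peak lay within 10 kb of 140 members (26.2%) and of 18.2% of the comparison, a difference of 7.94 points (4.28 to 11.9), and beyond 100 kb of 24.5% and 33.0%. Measured instead from the apex to any protein-coding start site, occupied or not, the medians were 11744 bp for members and 11739.5 bp for the comparison. The shares within 10 kb then differed by -0.19 points (-4.52 to 4.19). Height within the members was not ordered by the gap to a labelled promoter peak, with Spearman's rho of 0.03 over the 535 peaks.

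The 5 members nearest to a labelled promoter peak were at SASH3, a lymphocyte signalling adaptor (gap 101 bp, height 46), FGR, a myeloid Src-family kinase (180 bp, height 52), DDIT3, the stress-induced C/EBP-family factor (227 bp, height 50), TMEM104 (262 bp, height 70) and SLC22A4 (275 bp, height 48). The nearest label was that of the same gene at 4 of these, whereas at TMEM104 it was that of NAT9. The 5 farthest were assigned to DCSTAMP (914193 bp, height 56), GLI3 (height 48), INHBA (height 52), ACKR3 (height 46) and XYLT1 (height 47), at the edge of the range of gaps. The INHBA and GLI3 peaks lay 64762 bp apart, and both had PSMA2 as the nearest labelled promoter.

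High unlabelled peaks were found close to other peaks of the list. Another peak of any kind lay within 10 kb of 378 members (70.7%) and of 50.9% of the comparison, a difference of 19.7 points (15.6 to 23.6), and the share was higher among members on each of the 19 chromosomes compared. With labelled peaks set aside, another unlabelled peak lay within 10 kb of 60.2% and 41.2%, again on all 19 chromosomes. The median gap to the nearest other peak was 4149 bp (3379 to 4876 bp) for members and 9589.5 bp (9166 to 10058 bp) for the comparison. Among peaks of at least 1000 bp these medians were 3937 bp (2805 to 4657 bp) and 6508 bp (5487 to 7717 bp). Another member lay within 12.5 kb of 92 members (17.2%), and a member lay within that distance of 6.30% of the comparison.

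**Figure D2:**
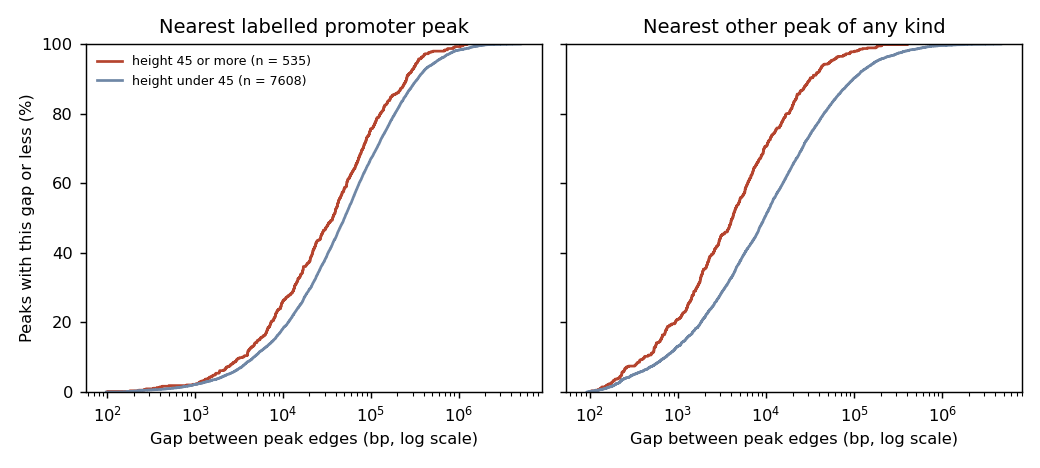
Cumulative share of peaks (vertical, percent) with a gap up to the value on the horizontal axis (bp, log scale) to the nearest labelled promoter peak (left) and to the nearest other peak (right). The red curve of the 535 members lies to the left of the blue curve of the 7608 comparison peaks over most of its length, with medians of 36856 and 50228 bp on the left and 4149 and 9589.5 bp on the right.

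Members separated by gaps of at most 12.5 kb were joined into chains. This gave 43 chains that together held 92 members, of which 40 were pairs, and 443 members stood alone. A single chain, at AGTRAP, spanned a labelled promoter peak. The longest chain held 5 members on chromosome 15 between 70755161 and 70785816, outside protein-coding genes and assigned to UACA, with heights of 62, 46, 58, 60 and 72 in order of position. The next held 4 members on chromosome 13 between 111172750 and 111189065, at COL4A2, a basement membrane collagen, and RAB20, with heights of 47, 47, 51 and 68. The remaining chain of 3 lay within PPCDC, where the peak of height 83 was flanked by peaks of height 49 on both sides.

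PPCDC was also 1 of 4 genes with 3 members inside the gene body. The others were RFX2, a transcription factor best known from ciliated cells and testis (heights 65, 54 and 51), SKI, a corepressor of SMAD signalling (63, 60 and 48), and TNS3, a focal adhesion protein (52, 46 and 45). All 3 members at RFX2 and at SKI lay in intron 1. A further 27 genes held 2 members each, with CRYBG1, STK10, MBP, RAB20, CUEDC1 and IRF1 next by height, and 218 genes held 1.

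Members were found on all 23 chromosomes of the list. They were 11.6% (48 of 415, 8.84 to 15%) of the unlabelled peaks on chromosome 15, against 6.57% over all chromosomes. Chromosome 19 had 8.73% and chromosome 16 had 8.54%, and chromosome 4 had the lowest share, 3.40% (1.66 to 6.85%). The intervals of all chromosomes other than 15 and 12 include the value over all chromosomes.

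**Figure D3:**
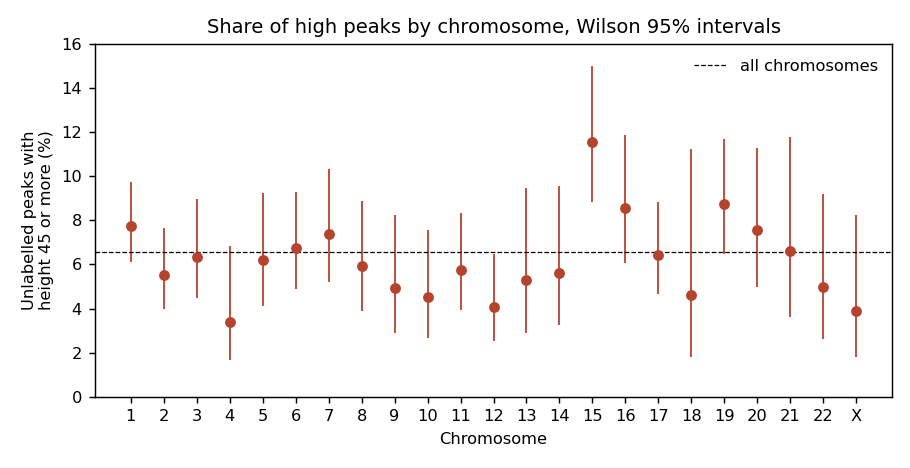
Members as a percent of the unlabelled peaks under 2500 bp on each chromosome (vertical), with Wilson 95% intervals as bars and the share over all chromosomes, 6.57%, as the dashed line. Chromosome 15 lies highest at 11.6% and chromosome 4 lowest at 3.40%.

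Of the 48 members on chromosome 15, 15 lay in a single stretch, singled out after its values were seen. Between 70000001 and 71000000 there were 44 unlabelled peaks, of which 15 (34.1%, 21.9 to 48.9%) were members. Of these, 10 were assigned to UACA, whose protein regulates apoptosis, 4 to TLE3 and 1 to RPLP1, which encodes a ribosomal stalk protein. The 44 peaks had a median height of 34.5, against 25 for the 371 on the rest of the chromosome, and only 1 labelled promoter peak, of height 40, lay in the same stretch. Without it, 33 of 371 unlabelled peaks of chromosome 15 (8.89%) were members. The next stretch by number of members was 6000001 to 7000000 on chromosome 19, with 7 of 35. Over the 257 such 1 Mb stretches with at least 10 unlabelled peaks, the median was 1 member, and 84 stretches held none.

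The sequence within 100 bp of each apex was searched on both strands for short motifs. A match is a string of letters and not evidence that a factor was bound. ETS factors were represented by GGAAGT and by the longer PU.1-type GAGGAAGT, which contains the former. RUNX was represented by TGTGGT, AP-1 by TGANTCA, C/EBP by TTGCNNAA, MYB by CAACTG or CAACGG, receptor hexamers by AGGTCA or GGGTCA, the GC box by GGGCGG, the zinc-responsive factor MTF-1 by TGCGCNC or TGCACNC, and the CTCF core by AGGGGGC. These 10 motifs and the hexamer pair make 11 comparisons.

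In these windows, RUNX was the 1 motif of the 11 whose interval of the difference did not include 0. In windows within 200 bp of the apex, the intervals for ETS (4.44 points, 0.06 to 8.79) and the receptor hexamer (5.57 points, 1.20 to 9.94) also left out 0, beside RUNX (5.68 points, 1.36 to 10.1). RUNX was found at 187 members (35%, 31.0 to 39.1%), at 28.0% of the comparison and at 19.4% of all 15412 peaks. The difference of 6.96 points (2.91 to 11.2) was seen on 14 of 19 chromosomes. Over the bands of height, the share went from 27.1% at 15 to 19 through 27.8%, 29.6% and 32.3% to 42.3% (34.4 to 50.5%) at 55 to 87. The step did not lie at the limit itself, where 28.6% of the 63 members at a height of 45 and 32.4% of the 68 comparison peaks at 44 held the motif. Among peaks of at least 1000 bp the difference was 12.5 points (6.98 to 18.5). With windows at the peak centre in place of the apex it was 1.5 points (-2.18 to 5.50).

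The other motifs differed less. ETS was found at 202 members (37.8%) and 34.6% of the comparison, and the PU.1-type motif at 10.3% and 8.85%. AP-1 was found at 21.9% and 19.1%, MYB at 17.8% and 15%, the GC box at 19.6% and 18.0%, and MTF-1 at 19.6% and 17.3%. C/EBP (11.2% and 13.5%) and the CTCF core (5.61% and 6.86%) were less frequent among members. Over all peaks of the list the shares were 30.4% for ETS, 6.45% for the PU.1-type motif, 12.5% for AP-1, 13.7% for MYB, 38.6% for the GC box, 22.5% for MTF-1, 9.64% for C/EBP and 10.5% for the CTCF core. ETS and RUNX occurred together at 12.9% of members and 9.20% of the comparison, a difference of 3.70 points (1.03 to 6.87). None of ETS, RUNX, AP-1, C/EBP and the receptor hexamer was found at 107 members (20.0%) and at 22.6% of the comparison. This difference was -2.62 points, with an interval that spans both signs (-5.93 to 1.09).

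A single receptor hexamer was found at 167 members (31.2%), at 28.6% of the comparison and at 24.4% of all peaks. Pairs of hexamers with a spacer of up to 12 bp in any orientation were rare, at 2 members (0.374%, 0.103 to 1.35%), 66 comparison peaks (0.868%) and 0.746% of all peaks. The pair near CD93, a receptor of myeloid and endothelial cells, has both hexamers in the same orientation with a spacer of 5 bp, as printed above. That peak had a height of 55 and lay 68171 bp from the labelled CD93 promoter peak. The pair at DAPK2, a death-associated kinase of granulocytic cells, has a spacer of 0 bp with the hexamers facing each other, in a peak of height 49.

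**Figure D4:**
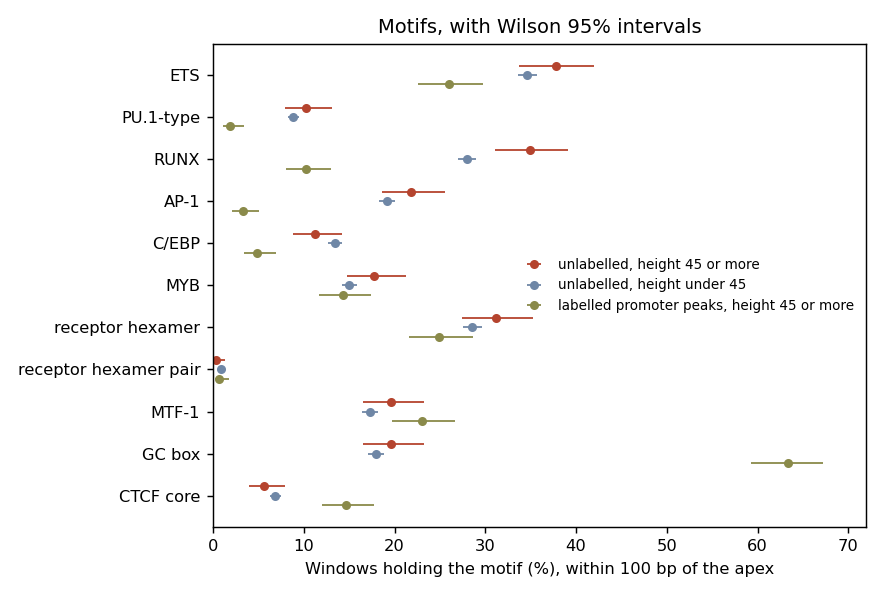
Share of windows within 100 bp of the apex that hold each motif (horizontal, percent, with Wilson 95% intervals) for the 535 members (red), the 7608 comparison peaks (blue) and 573 labelled promoter peaks of the same height and width range (olive). RUNX lies at 35%, 28.0% and 10.3%, and the GC box at 19.6%, 18.0% and 63.4%.

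Labelled promoter peaks of the same height and width range, 573 of them, differed far more from the members in these letters. AP-1 was found at 3.32% of them, 18.6 points (14.8 to 22.4) below the members, and RUNX at 10.3%, 24.7 points (19.9 to 29.4) below. The PU.1-type motif was at 1.92% and C/EBP at 4.89%. The GC box was found at 63.4% of the labelled peaks, and the members differed from them by -43.7 points (-48.7 to -38.3). The CTCF core was at 14.7% of them. The interval of the difference included 0 for MTF-1 (23%), for MYB (14.3%) and for hexamer pairs (0.698%). The median GC content of the windows was 62.7% at labelled peaks, 56.2% at members and 54.7% in the comparison, and its part in these differences was not tested.

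ETS and RUNX matches gathered near the apex of the members. Within 50 bp of it there were 28.4 ETS matches per 100 members, against 12.5 in the 2 flanks from 150 to 200 bp, which together span about the same length. For RUNX these values were 22.4 and 8.04, and for AP-1 13.5 and 5.05. For the receptor hexamer they were 14.2 and 13.8 among members, and 17.1 and 11.9 in the comparison. Comparison peaks had 22.9 and 8.43 ETS matches and 19.2 and 8.39 RUNX matches per 100 peaks, so these matches were also denser near the apex there.

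**Figure D5:**
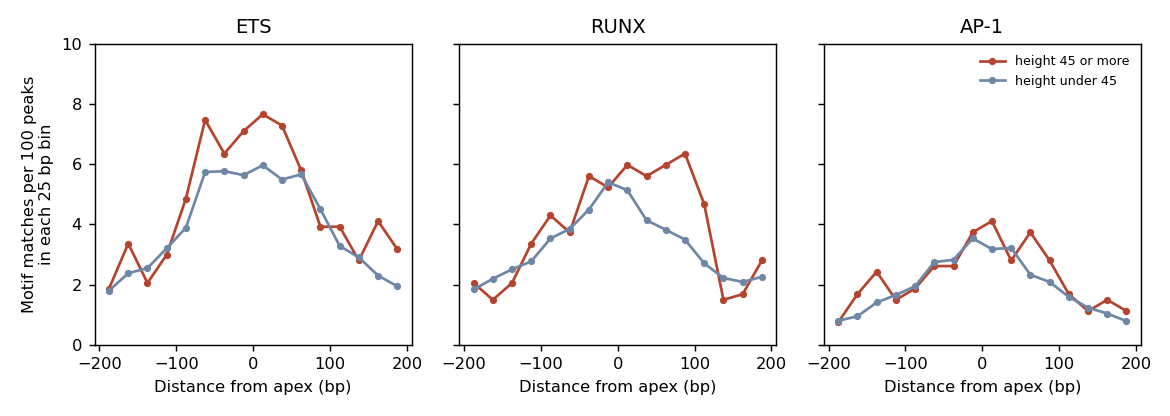
Matches per 100 peaks in each 25 bp bin (vertical) by distance from the apex in bp (horizontal) for ETS, RUNX and AP-1, with members in red and comparison peaks in blue. In both groups the matches are denser within 50 bp of the apex than towards 200 bp. The densest RUNX bin of the members is centred at 87.5 bp (6.36 per 100 peaks). The red lines scatter more because they rest on 535 peaks.

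The assigned genes were 445 different protein-coding genes, or 2.21% of 20149. A member's gene is the one whose body holds the apex, or else the one with the nearest start site, so that long genes and isolated genes have more room to be assigned a peak. Among 68 haematopoietic transcription factors, 16 were assigned a member (23.5%, 15 to 34.9%). In the order of the highest member, these began with IRF8, which directs monocyte development (height 66), IRF1, an interferon-induced factor (61, with 2 members), ID2, an inhibitor of E proteins (61, with 2 members), and RUNX1, a core factor of blood stem and progenitor cells (58, with 2 members). The IRF1 and RUNX1 peaks lay inside the annotated gene bodies but outside the canonical transcripts. Their nearest labelled promoter peaks were those of the same genes, 21718 bp away for IRF1 and 456386 bp away for RUNX1. The IRF8 peak lay past the end of the gene, 14543 bp downstream of the nearest annotated IRF8 start site. The ID2 peak lay 378328 bp from the labelled ID2 promoter peak. Counting a gene only where the apex lay within its body, 5.88% of the list had a member, against 1.24% of all protein-coding genes. Lower unlabelled peaks were also assigned to 72.1% of the list, against 19.8% of all protein-coding genes, and 66.2% and 29.9% had a labelled promoter peak.

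Of 46 signalling and feedback genes, 6 were assigned a member (13%, 6.12 to 25.7%), beside 2.21% of all protein-coding genes. They were led by TNFAIP3, a brake on NF-kappaB signalling (height 61), VAV1, a guanine nucleotide exchange factor of blood cells (60), FGR (52) and PTPN1, a tyrosine phosphatase (51). The VAV1, FGR and PTPN1 peaks lay in intron 1. The genes of this list had a median length of 85370.5 bp, against 27194 bp for all protein-coding genes. Lower unlabelled peaks were also assigned to 80.4% of this list, against 19.8% of all protein-coding genes. A labelled promoter peak was found for 71.7% and 29.9%. Among corepressors and chromatin modifiers, members were assigned to TLE3 (68, with 4 members) and to TET3, a DNA demethylation enzyme (46, in intron 3). The TLE3 peak of height 68 lay outside protein-coding genes, 292352 bp from the nearest TLE3 start site.

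Of 30 retinoic acid genes, 3 had a member (10.0%, 3.46 to 25.6%), beside 2.21% of all protein-coding genes. All 3 were near the lower limit of height. They were ALDH1A2, a retinoic acid synthesising enzyme (49), CD38, a retinoic acid-induced surface enzyme (45), and PRAM1, an adaptor named for its regulation in promyelocytic leukemia (45, in intron 4). Of 40 leukocyte receptors and integrins, 3 were assigned a member, namely CD14, the lipopolysaccharide co-receptor (56), TNFRSF1B, a TNF receptor (54), and IL17RA (47). PIM1, a survival kinase (66), and CCND3, a D-type cyclin (53), were the 2 of 28 cell cycle and apoptosis genes. For the cell cycle list the share was 7.14% (1.98 to 22.6%) and for the receptors 7.5% (2.58 to 19.9%), beside 2.21% of all protein-coding genes. Lower unlabelled peaks were also assigned to 50% of the retinoic acid list, 62.5% of the receptors and 57.1% of the cell cycle list. Over all protein-coding genes this share was 19.8%. A labelled promoter peak was found for 33.3%, 55% and 78.6% of these lists, against 29.9% of all protein-coding genes. In the TGF-beta pathway, SKI was the 1 gene of 22, and in coagulation and fibrinolysis PLAUR, the urokinase receptor, was the 1 of 18 (height 45, in intron 1). The intervals of these last shares (0.81 to 21.8% and 0.99 to 25.8%) include 2.21%.

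No member was assigned to any of 20 granule and secretory genes (0%, Wilson interval 0 to 16.1%) or to any of 13 zinc response genes (0%, 0 to 22.8%), and both intervals include the 2.21% of all protein-coding genes. Lower unlabelled peaks were assigned to 9 and 4 of these genes, and 12 and 8 of them had a labelled promoter peak, so both lists were represented elsewhere in the peak list. The median gene lengths were 7049.5 bp for the granule genes and 1727 bp for the zinc response genes, both short of the median of all protein-coding genes, and the part of gene length in these counts was not tested.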

How the data were processed

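The list of anti-PML::RARA Cut&Run peaks from zinc-treated U937-PR9 cells was analysed. Upstream, Trimmomatic trimming, Bowtie2 alignment to hg19, duplicate removal (SAMtools) and blacklist filtering (Bedtools) were followed by SEACR peak calling against paired controls under the norm union setting, and peaks reproducible over the 2 replicates at an IDR under 0.05 were kept. The study's methods call the replicates biological. Tool versions are not given in the sources used here. The authors deposited a total signal per peak, a score that is the largest signal (called peak height), and the width. Whether this signal comes from 1 replicate, a mean or pooled reads, and how it was scaled, is not given in the sources used here, and depth is unknown. Symbols were given by the authors where the apex overlapped a promoter, and the tables hold no columns of the authors' own comparisons.

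The apex is the midpoint of the interval of largest signal. Genes, exons and start sites came from GENCODE 44 mapped to GRCh37, and sequences from the GRCh37 genome, which is the build of hg19. Shares have Wilson intervals, differences of shares Newcombe intervals and medians exact binomial intervals, all at 95% and for counting only. No p-value was computed, since members were chosen by height and peaks are not replicates. The functions were tested on simulated data. The members and gene lists were chosen with earlier results of these data known. Genes were named by rule. The rule took the 20 highest members, the 10 genes whose bodies hold the most members, the 4 genes with the highest member in each list, chains of at least 4 members, the 5 members nearest to and the 5 farthest from a labelled promoter peak, the 5 highest within 1 kb of a start site, and the highest member with each motif. AGTRAP and the DAPK2 pair were named after their values were seen. An item covered by the rule is not reported here. Alternatives were other limits of height and width, merged neighbouring peaks, total signal as the ranking, peak centres, wider windows, other annotations and other chain gaps. Analyses used samtools 1.23.1 and Python 3.11.15 with pandas 2.3.3, numpy 2.4.6, pysam 0.24.0, scipy 1.17.1 and matplotlib 3.10.9.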

Additional observations from a re-analysis of the deposited data

How the results depend on the processing

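Of 130 values recomputed under 16 other settings, 99 stayed within the interval of the value reported (for the number of members, within 1.5 times it), and 31 moved beyond it. In 12 cases a difference changed sign. The reported interval had left out 0 for 2 of these (within 1 kb of a start site and labelled promoter within 10 kb) and included 0 for the other 10 (introns, intergenic, ETS, AP-1, C/EBP and the GC box), and the causes were not tested unless the setting's own construction shows them. With a height of at least 40, members were 11.5% of the unlabelled peaks under 2500 bp in place of 6.57%, the difference for another peak within 10 kb was 15.5 points, and that for the GC box 5.38 points. In that setting 20.7% of members were in chains, 19% of the unlabelled peaks of chromosome 15 were members, and 3.59% of all protein-coding genes had a member. With a height of at least 50, the same shares were 3.55% (289 members), 8.65% in chains, 5.78% on chromosome 15, 10.3% of haematopoietic transcription factors and 1.25% of all genes, and the RUNX difference was 12.5 points. Ranking by total signal kept 265 of the 535 members, which are 3.25% of the unlabelled peaks. With neighbouring peaks merged, 12.5% of members were in chains, and with chain gaps of 5000 and 25000 bp 10.3% and 22.4%. At peak centres the differences were -1.61 points for ETS, 1.5 for RUNX and -2.31 for AP-1. Among peaks of at least 1000 bp they were 3.65 points for introns, -5.19 within 1 kb of a start site, 12.5 for RUNX, 8.11 for AP-1 and -8.72 for the GC box, and the median gap to a labelled promoter peak was 32097 bp for members and 38410 bp for the comparison. Without peaks within 1 kb of a start site this gap was 40038 bp for members and 53511 bp for the comparison. Measured to any protein-coding start site, the difference within 10 kb was -0.19 points and the medians were 11744 bp for members and 11739.5 bp for the comparison. With the apex inside the gene body, 5.88% of haematopoietic transcription factors and 1.24% of all genes had a member. The differences for the assigned gene's labelled promoter (11.3 to 15.4 points) and for another unlabelled peak within 10 kb (15.1 to 18.1 points) kept their direction with intervals that leave out 0 under each alternative run for them. No paired analysis was possible because each peak has 1 value and none for each replicate, so leaving out a replicate could not be tried either.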
